A study of Mus musculus with 32 samples.

Results

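The genes described here encode the subunits of the oxidative phosphorylation complexes of mitochondria. They were taken as every probe whose gene symbol begins with Nduf, Uqcr or Atp5, begins with Cox followed by a number below 10, or is Sdha, Sdhb, Sdhc, Sdhd, Cycs or Cyc1. The rule found 100 probes of 73 genes, out of 9030 named genes on an array of 20794 probes. By complex these were 27 genes of complex I, 4 of complex II, 8 of complex III, 15 of complex IV and 15 of complex V. The Nduf prefix also brought in 4 genes that assemble complex I but are not part of it (Ndufaf1, Ndufaf3, Ndufaf5 and Ndufaf7), which are kept apart below. No probe was matched to Cycs.

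In oxidative phosphorylation, complexes I and II take electrons from NADH and from succinate, complex III passes them through cytochrome c to complex IV, and complex IV reduces oxygen. Complexes I, III and IV pump protons across the inner mitochondrial membrane, and complex V, the ATP synthase, makes ATP from the returning protons. Heart muscle and the photoreceptors of the retina are among the tissues richest in mitochondria, and striated muscle uses its own isoforms of several complex IV subunits.

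RNA of single organs of 6 sighted male C3H mice, which the series design calls the C3H seh mutant line, was hybridised on 2-colour cDNA arrays against RNA of the same organ from C3H.pde6b- males. C3H mice commonly carry the retinal degeneration mutation of Pde6b, a subunit of the rod phosphodiesterase, and lose their rods. There were 8 heart, 12 eye and 12 brain arrays, with the dyes exchanged between the arrays of a pair, so the replicates were 4 heart, 6 eye and 6 brain dye pairs. The control RNA of an organ was 1 pool of 6 mice, so the spread between control animals was not measured. One set of control mice gave both the heart and the brain pool, and another set gave the eye pool. The labels name no age and do not say which arrays share a sighted animal, so each p-value reflects only how far these pairs scatter, which may be technical in part.

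Each value is the log2 of sighted over control RNA, so a positive value means more of a transcript in the sighted animals. A ratio gives no level, so genes cannot be ranked by abundance, and the organ labels could be checked only in the eye, where 7 of 7 rod genes differed between sighted and control RNA. The direction is likely rather than stated: on the eye arrays, 7 rod genes had deposited medians between 4.71 and 5.42 where the sighted RNA was labelled with Cy5 and between -4.37 and -3.82 where it was labelled with Cy3. Missing values made up 5.96% to 12.0% of the probes on 7 heart arrays and 61.6% on 1 array of heart replicate 4, against at most 5.10% on the eye arrays and 5.05% on the brain arrays. In RNA of a whole organ, fewer cells of a type and less RNA per cell cannot be told apart. The cDNA probes may also bind transcripts of related isoforms, which was not tested.

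A gene is called here at an adjusted p under 0.05 in limma, with Benjamini-Hochberg adjustment over all genes tested in the organ. In the counts, shares and medians of all genes on the arrays, unnamed probes are included. Each of the 8023 probes without a symbol counts there as 1 gene, beside the 9030 named genes. By this test 11 members were called in the eye (15.3% of those tested, against 26.8% of all genes). None was called in heart or brain, where 0 and 1 of all genes tested were. In the heart, 67 of 70 tested members had a mean above 0, where 48.3% of all genes did, but no member passed the test. In the eye the called members went in both directions, with the striated muscle isoforms of complex IV lower in sighted animals.

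**Figure D1:**
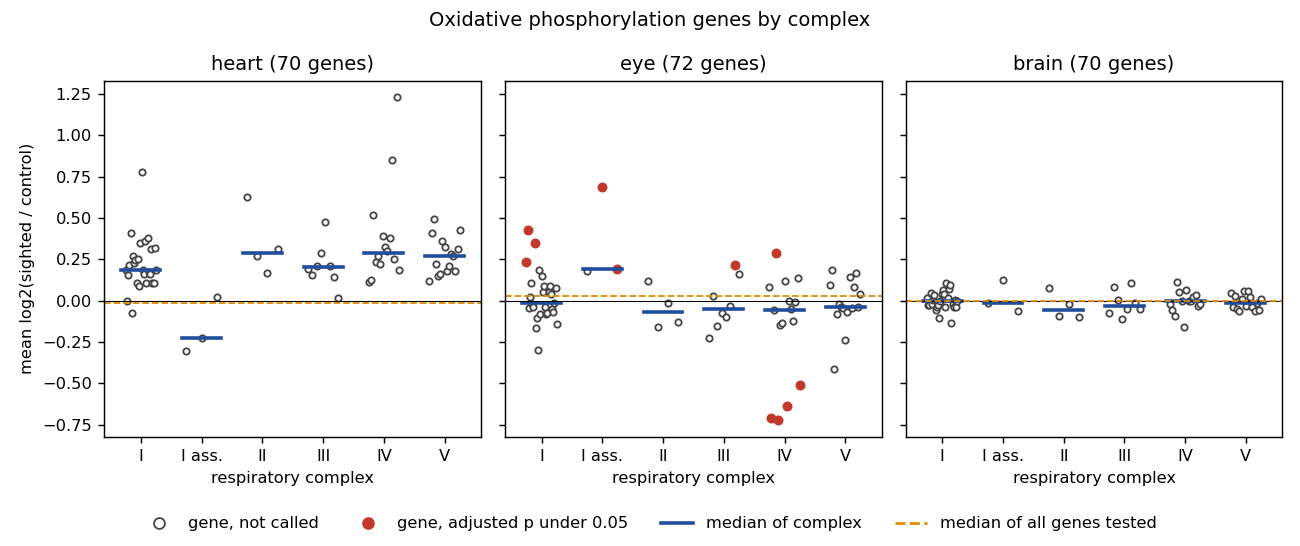
Mean log2(sighted/control) of each tested gene (points) by respiratory complex in heart, eye and brain, with the median of each complex (blue bars) and the median of all genes tested (dashed line). In heart the points of complexes I to V lie above 0 apart from Ndufa5; in eye 11 genes (red) were called, 7 above and 4 below 0; the brain points lie between -0.16 and 0.13.

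Most members had heart means above 0. Their median was 0.22, against -0.01 for the 12755 genes tested, and 67 of 70 lay above 0, where 48.3% of all genes did. A value above 0 in every replicate measured was found for 40 members, where 12% of all genes showed it, and 2 members, Ndufaf1 and Ndufaf5, were below 0 in every one. The median of the members was 0.16, 0.29, 0.28 and 0.13 in replicates 1 to 4, while the median of all genes was -0.06, -0.06, -0.02 and 0.11. No member was called in either direction, nor was any other gene (0% of all genes higher and 0% lower). At an unadjusted p under 0.05 there were 8 members, all of them higher, where 3.63% of all genes were higher at that threshold. Ndufab1, Ndufaf3 and Cox5a were measured in too few heart replicates to be tested.

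On single heart arrays the members' median exceeded that of all genes on 7 of 8 arrays, by 0.14 to 0.48, with 67.6% to 90.1% of the members above the all-gene median. The exception was the array with 61.6% of its values missing, where the members' median lay 0.34 below that of the genes still measured and 21.2% of the members were above it. The shift also differed with the dye: it was 0.25 to 0.48 on the 4 arrays with sighted RNA in Cy3. On the 4 with it in Cy5 it was -0.34 to 0.23, or 0.14 to 0.23 without the array of many missing values. On those remaining Cy5 arrays the members' own median was 0.25 to 0.27, and on the Cy3 arrays 0.08 to 0.36. The all-gene median was 0.04 to 0.12 on the former and -0.16 to -0.11 on the latter. In eye and brain the members' median minus that of all genes stayed between -0.10 and 0.15 on every array.

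**Figure D2:**
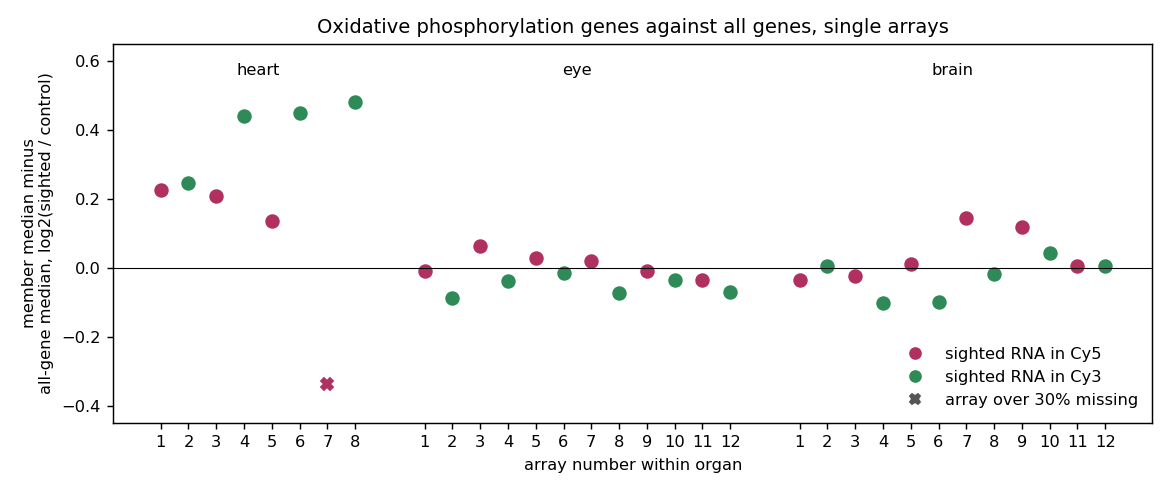
Median of the oxidative phosphorylation genes minus the median of all genes on each array, in log2(sighted/control), coloured by the dye of the sighted RNA. The cross marks the heart array with 61.6% missing values, at -0.34; the other heart arrays lie between 0.14 and 0.48, and the eye and brain arrays between -0.10 and 0.15.

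Complex II held the heart gene with the smallest p. Sdha, the flavoprotein that oxidises succinate, measured 0.53, 1.02, 0.43 and 0.52 in replicates 1 to 4, a mean of 0.63 ± 0.26 (SD, n = 4), or 1.55-fold, with a limma adjusted p of 0.568. All 4 values were above 0 and replicate 2 was the highest. Over 17 alternative settings, among them each dye orientation alone, the Sdha value ran from 0.30 to 0.95. Sdhb, the iron-sulfur subunit, had a mean of 0.27 ± 0.11 (SD, n = 4), with replicates between 0.12 and 0.37. The median of the 4 complex II genes was 0.29, and among 13 genes of the citrate cycle and pyruvate dehydrogenase, listed without these 4, the median was also 0.29, with 12 above 0 and none called.

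Complex III had the lowest median SD between heart replicates of complexes I to V, 0.16, against 0.17 in complex V. The SDs of its genes ran from 0.02 to 0.59. Uqcrc2, a core subunit on the matrix side of the complex, measured 0.52, 0.52, 0.41 and 0.45, a mean of 0.48 ± 0.05 (SD, n = 4) with an adjusted p of 0.568 from limma. Its partner Uqcrc1 measured 0.29, 0.29, 0.31 and 0.26, a mean of 0.29 ± 0.02 (SD, n = 4). Both genes were above 0 in each replicate, but the evenness arises only after averaging the dyes: Uqcrc2 was 0.0035 over the arrays with sighted RNA in Cy5 and 0.95 over those with it in Cy3, and Uqcrc1 was 0.04 and 0.53. The 8 genes of complex III had a median of 0.20.

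In complex IV, Cox6c, a small nuclear-encoded subunit, measured 0.27, 0.49, 0.52 and 0.28 in the heart, a mean of 0.39 ± 0.13 (SD, n = 4), with 0.018 over the Cy5 arrays and 0.76 over the Cy3 arrays. Cox7b, another small subunit, measured 0.45, 0.46, 0.55 and 0.07, with replicate 4 the lowest and a mean of 0.38 ± 0.21 (SD, n = 4). Neither was called by limma (adjusted p = 0.568 for both). Cox8a had the highest heart mean of all members, 1.23 ± 1.55 (SD, n = 4), and this value rests on replicate 4: it measured 3.54 there and 0.69, 0.36 and 0.34 in the others, and the mean without it was 0.46. Replicate 4 was also the highest for Cox6a1, at 1.41, against 0.01, 0.29 and 0.37. The median of the 14 tested complex IV genes was 0.29.

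Complex V, the ATP synthase, had a heart median of 0.27 over 15 genes, each of which had a mean above 0. Atp5c1, the central gamma subunit that turns inside the catalytic head, measured 0.44, 0.50, 0.78 and 0.25, a mean of 0.49 ± 0.22 (SD, n = 4). Atp5pb, part of the peripheral stalk, measured 0.33, 0.51, 0.61 and 0.26, a mean of 0.43 ± 0.16 (SD, n = 4). Atp5b, the catalytic beta subunit, had a mean of 0.41 ± 0.15 (SD, n = 4). The limma adjusted p was 0.568 for each of the 3, and Atp5b was -0.10 over the Cy5 arrays and 0.92 over the Cy3 arrays.

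The 26 tested complex I subunits had the lowest median of the complexes in heart, 0.19, with 25 above 0. Ndufc1, a small accessory subunit, measured 0.21, 0.15, 0.61 and 0.54, a mean of 0.38 ± 0.23 (SD, n = 4). Ndufv1, the subunit that binds NADH and FMN, measured 0.27, 0.42, 0.17 and 0.40, a mean of 0.32 ± 0.12 (SD, n = 4), but -0.20 over the Cy5 arrays and 0.83 over the Cy3 arrays. Ndufb4 had the highest complex I mean, 0.78 ± 0.85 (SD, n = 4), with 1.97 in replicate 1 and 0.08 to 0.80 in the others. The single complex I subunit with a mean below 0 was Ndufa5, at -0.07 ± 0.21 (SD, n = 4). Of the 3 assembly factors tested, 2 were below 0. Ndufaf1, which acts on an early intermediate of complex I, measured -0.46, -0.12, -0.54 and -0.09, a mean of -0.30 ± 0.23 (SD, n = 4), and Ndufaf5 measured -0.45, -0.20, -0.08 and -0.19. Neither was called (limma adjusted p = 0.568 and 0.583), and Ndufaf1 was 0.09 over the Cy5 arrays.

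**Figure D3:**
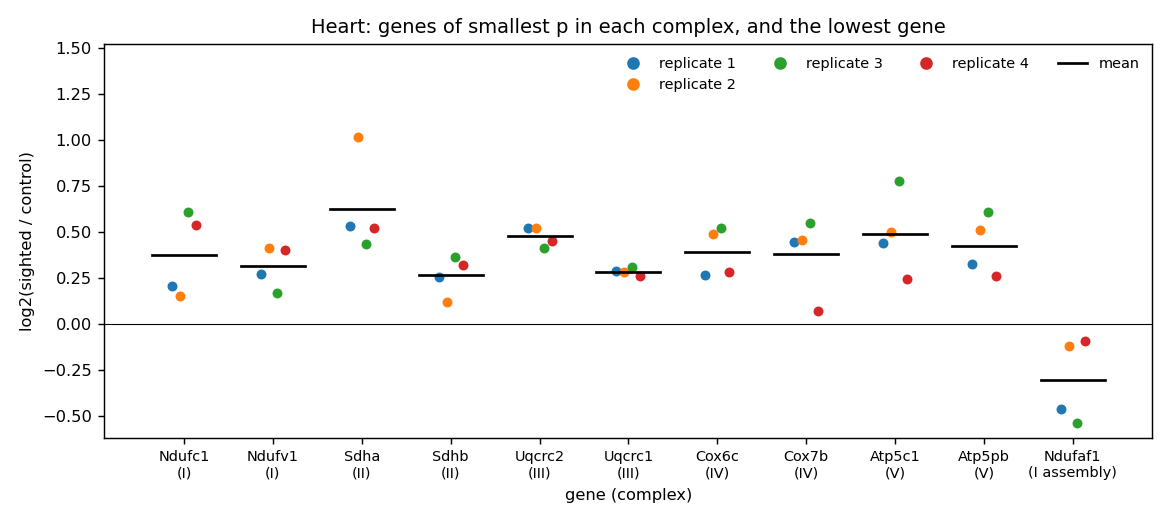
Heart log2(sighted/control) in each of 4 replicates (dye pairs, coloured points) with the mean (bar), for the genes of smallest p in each complex and for Ndufaf1, the lowest member. Each gene but Ndufaf1 was above 0 in all 4 replicates, Uqcrc1 the most even (0.26 to 0.31), and none was called.

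Other gene groups lay above 0 in the same heart arrays. Genes of the cytosolic ribosome, a list added after the data were seen, had 49 of 55 members above 0 and a median of 0.19. Assembly factors outside the Nduf family had 15 of 17 above 0 (median 0.30), genes of coenzyme Q synthesis and electron entry 7 of 9 (median 0.25), and mitochondrial import and transport 14 of 19 (median 0.10). Mitochondrial ribosomal genes (32 of 55, median 0.06) and regulators of mitochondrial biogenesis (7 of 13, median 0.04) were nearer to 0. Among cell type markers, 14 of 15 cardiomyocyte genes (median 0.17), 7 of 8 fibroblast and matrix genes (median 0.34), 3 of 4 fat genes (median 0.26), 2 of 3 brown fat genes (median 0.16), 2 of 4 atrial genes (median 0.01), 2 of 5 endothelial genes (median -0.02), 3 of 9 immune genes (median -0.05), 0 of 3 neuron genes (median -0.15), 2 of 5 rod genes (median -0.06), 4 of 9 skeletal muscle genes (median -0.04) and 0 of 4 blood genes (median -0.07) were above 0. No gene of these lists was called in heart, and their part in the members' shift was not tested.

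In the eye, 72 of 73 members were tested and 11 were called, 7 higher and 4 lower in sighted animals. That is 7 of 72 where 15.9% of the 15874 genes tested were called higher, and 4 of 72 where 11% were called lower. The members' median was -0.03 against 0.03 for all genes, and 30 of 72 lay above 0, where 55.5% of all genes did. With each array centred on its median the same 11 members were called, with 6 more, and the split became 8 higher and 9 lower (all genes, 2537 higher and 2410 lower in place of 2520 and 1739). Of the 11, 5 stayed called with any 1 replicate left out (Ndufaf5, Cox8b, Cox6a2, Ndufa10 and Cox5a), and the other 6 lost the call without 1 or more of the 6 replicates.

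The 3 striated muscle isoforms of complex IV fell in the sighted eye. Cox6a2, the muscle form of a regulatory subunit, ranged over the 6 replicates from -1.06 through a median of -0.74 to -0.34, a mean of -0.72 ± 0.26 (SD, n = 6), or 1.65-fold lower (limma adjusted p = 0.000982). Cox8b ranged from -0.63 through -0.54 to -0.35, a mean of -0.51 ± 0.13 (SD, n = 6; limma adjusted p = 0.000755). Both were below 0 in all 6 replicates. Cox7a1, the muscle form of another small subunit, ranged from -1.14 through -0.82 to 0.19, a mean of -0.64 ± 0.49 (SD, n = 6; limma adjusted p = 0.0217), with replicate 4 the only one above 0. These values average 2 probes. The probe measured in all 6 replicates gave -0.67 ± 0.225 (SD, n = 6), and the other, measured in 3, gave -0.55 ± 1.46 (SD, n = 3). The call of Cox7a1 was lost without replicate 2, 3, 5 or 6 (means -0.59, -0.54, -0.61 and -0.58).

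None of the broadly expressed partners of these isoforms was called lower, and the difference between partners was not tested. Cox6a1 ranged from -0.03 through 0.33 to 0.46 and rose by 0.29 ± 0.19 (SD, n = 6; limma adjusted p = 0.0261), although the call was lost without any replicate but the fourth. Its value was 0.57 over the Cy5 arrays and 0.0032 over the Cy3 arrays. Cox8a had a mean of 0.14 (95% interval -0.02 to 0.29) and Cox7a2 one of -0.0031 (-0.17 to 0.17), neither called. Muscle markers moved with the muscle isoforms: of 12 skeletal muscle genes tested in the eye, 11 fell and 1, Pvalb, rose. Their median was -0.52, -1.18, -0.85, -0.98, -1.01 and -1.29 in replicates 1 to 6, where that of the 3 isoforms was -0.34, -0.88, -0.62, -0.40, -0.62 and -0.88. Actn3 and Ckm, the fast muscle actinin and creatine kinase, fell by 1.18 and 1.13. Of 15 genes listed as cardiomyocyte markers, 6 fell and 3 rose, and 4 of 4 blood genes fell (median -1.50). The 7 rod genes had a median of 4.57, whose sign is no finding, since these genes set the direction of the ratios. Of the other markers, 5 of 8 immune, 3 of 6 fat, 2 of 3 atrial, 1 of 4 brown fat and 1 of 8 matrix genes fell, 1 of 6 endothelial genes rose, and 2 of 5 neuron genes rose and 1 fell. All these marker counts are of called genes, where 15.9% of all genes were called higher and 11% lower. The part of these groups in the members' changes was not tested.

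**Figure D4:**
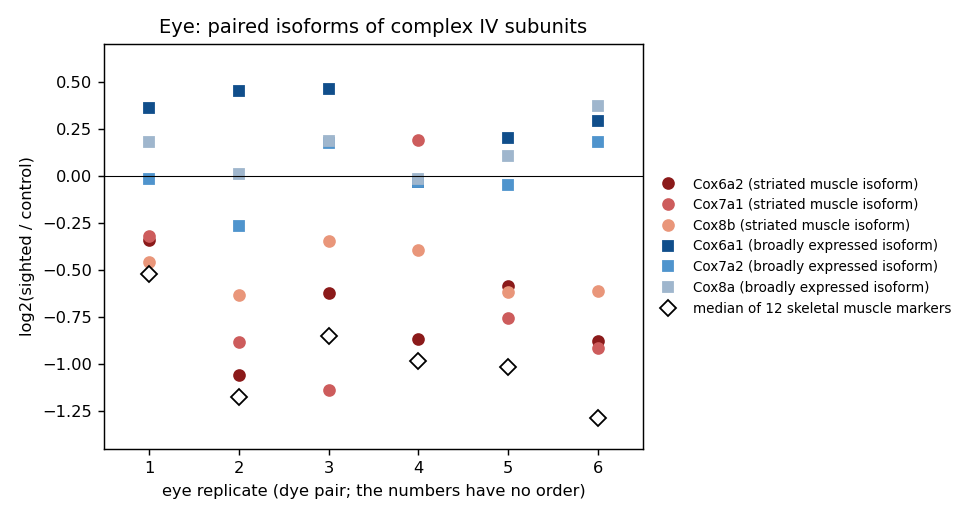
Eye log2(sighted/control) by replicate for the striated muscle isoforms of 3 complex IV subunits (circles), their broadly expressed partners (squares) and the median of 12 skeletal muscle markers (diamonds). The muscle isoforms lie below 0 apart from Cox7a1 in replicate 4 (0.19), and the marker median lies between -1.29 and -0.52.

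The region before the transcription start is shown for the 2 isoform pairs that have an entry in the RefSeq promoter table, because 1 gene of each pair fell in the eye and its partner was not called. Each run is the 250 bases before the start, 5′ to 3′, on GRCm38.p6: Cox7a1 at chr7:30183921-30184170, plus strand; Cox7a2 at chr9:79759854-79760103, minus strand; Cox8b at chr7:140900447-140900696, minus strand; Cox8a at chr19:7217617-7217866, minus strand. The start of Cox7a2 used here lies 11569 bases inside the outer end of its RefSeq gene model. Capitals mark the E-box letters CANNTG, searched on both strands.
Cox7a1: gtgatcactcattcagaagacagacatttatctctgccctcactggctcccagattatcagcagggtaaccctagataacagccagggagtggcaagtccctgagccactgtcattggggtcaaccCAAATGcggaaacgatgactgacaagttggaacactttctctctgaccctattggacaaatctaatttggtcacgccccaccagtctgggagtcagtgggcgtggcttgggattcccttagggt
Cox7a2: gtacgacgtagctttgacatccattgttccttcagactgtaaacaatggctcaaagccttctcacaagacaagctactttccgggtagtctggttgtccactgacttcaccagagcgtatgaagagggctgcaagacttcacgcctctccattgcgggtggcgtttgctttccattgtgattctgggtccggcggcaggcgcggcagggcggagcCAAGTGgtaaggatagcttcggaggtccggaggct
Cox8b: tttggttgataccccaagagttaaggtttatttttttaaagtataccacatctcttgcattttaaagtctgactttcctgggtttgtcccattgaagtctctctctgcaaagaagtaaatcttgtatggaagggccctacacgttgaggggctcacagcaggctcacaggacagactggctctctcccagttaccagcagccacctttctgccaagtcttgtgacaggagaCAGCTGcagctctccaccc
Cox8a: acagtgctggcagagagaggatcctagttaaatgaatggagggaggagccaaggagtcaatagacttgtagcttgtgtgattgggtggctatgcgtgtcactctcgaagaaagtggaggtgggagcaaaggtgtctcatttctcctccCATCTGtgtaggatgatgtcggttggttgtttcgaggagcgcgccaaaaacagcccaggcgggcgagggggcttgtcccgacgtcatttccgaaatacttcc
Each of the 4 runs held 1 E-box. At least 1 was found for 39 of 61 members (63.9%) and for 69.3% of 27025 genes with an entry. None of the 4 held any of the other 4 motifs searched. The GC content was 51.2% for Cox7a1 and 47.2% for Cox8b, against 54.8% for Cox7a2 and 52.8% for Cox8a. The other motifs were the core letters of NRF1 (CGCATGCG), GABP (CCGGAAG), ERR (AAGGTCA) and YY1 (AAGATGGC), each on both strands. Among the 61 members, 5 held the NRF1 letters (8.2%, where 1.75% of genes did), 11 the GABP letters (18% against 7.83%), 4 the ERR letters (6.56% against 4.7%) and 1 the YY1 letters (1.64% against 1.83%). A match is a description of the letters and no evidence of binding.

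Cox5a, a nuclear-encoded subunit of complex IV, also fell in the eye, by 0.71 ± 0.51 (SD, n = 6; limma adjusted p = 0.0157). Replicate 1 was far lower, at -1.69, and the others lay between -0.70 and -0.22, below 0 in each. Without replicate 1 the mean was -0.52 and the call held.

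Of the 27 complex I subunits tested in the eye 3 rose, and of the 3 assembly factors 2 did, where 15.9% of all genes were called higher. Ndufaf5, which modifies a complex I subunit during assembly, ranged from 0.53 through 0.73 to 0.79 and rose by 0.69 ± 0.11 (SD, n = 6), or 1.61-fold (limma adjusted p = 0.000119). Ndufa10 ranged from 0.21 through 0.48 to 0.56 and rose by 0.43 ± 0.13 (SD, n = 6; limma adjusted p = 0.00203), and its 2 probes gave 0.33 and 0.52. Both were above 0 in every replicate. Ndufa7 and Ndufa1, accessory subunits, rose by 0.35 ± 0.22 and 0.23 ± 0.10 (SD, n = 6; limma adjusted p = 0.0178 and 0.0222). Ndufa7 lost its call without replicate 1, 4 or 6, and Ndufa1 without 1, 3, 4 or 6.

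Ndufaf7, an arginine methyltransferase of complex I assembly, rose by 0.19 ± 0.06 (SD, n = 6; limma adjusted p = 0.0339), and the call was lost without any replicate but the second. The third assembly factor tested, Ndufaf1, had a mean of 0.18 ± 0.11 (SD, n = 6) and was not called (limma adjusted p = 0.0617). Of the other 24 complex I subunits tested none was called. Beyond the Nduf family, 6 of 23 assembly factors rose and none fell in the eye, where 15.9% of all genes were called higher and 11% lower. The 6 were led by Cox20 (1.00 ± 0.09, SD, n = 6) and Cox19 (0.49 ± 0.11, SD, n = 6), which act in building complex IV.

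**Figure D5:**
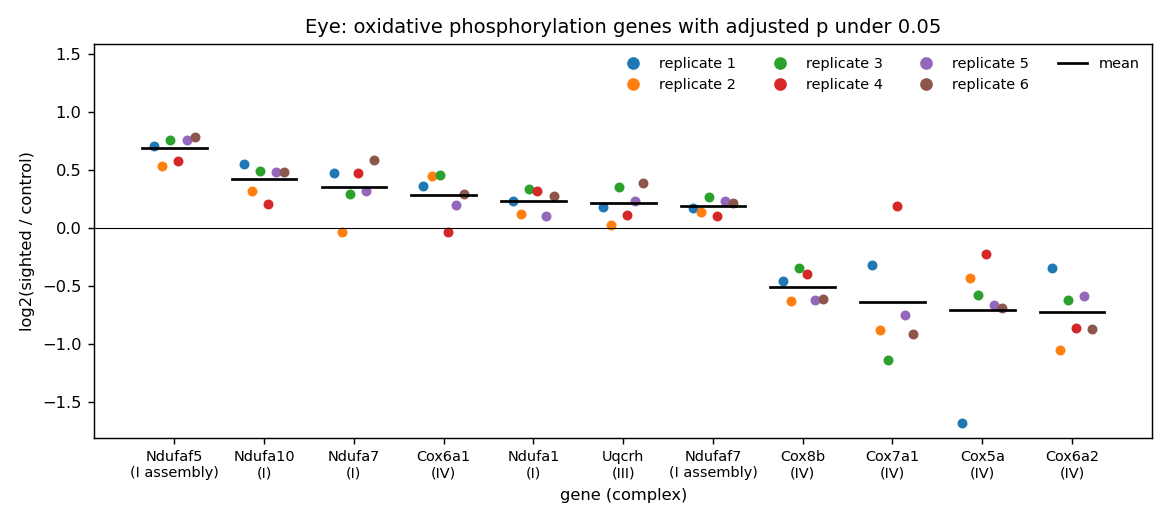
Eye log2(sighted/control) in each of 6 replicates (dye pairs, coloured points) with the mean (bar), for the 11 called members. The 7 genes that rose have means from 0.19 to 0.69 and the 4 that fell from -0.72 to -0.51, all of complex IV; replicate 1 of Cox5a stands apart at -1.69.

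In complex III of the eye, Uqcrh, the hinge subunit beside cytochrome c1, rose by 0.22 ± 0.14 (SD, n = 6; limma adjusted p = 0.0459), and lost the call without any replicate but the second. Uqcr11 had a mean of -0.15 ± 0.10 (SD, n = 6) and was not called (limma adjusted p = 0.097). No gene of complex II or V was called. Atp5b had a mean of 0.18 ± 0.10 (SD, n = 6; limma adjusted p = 0.0545) and Atp5j, a coupling factor of the stalk, -0.24 ± 0.18 (SD, n = 6; limma adjusted p = 0.0527). Sdhb had a mean of -0.16 ± 0.15 and Sdhd, a membrane anchor of complex II, of -0.13 ± 0.16 (SD, n = 6 for both). Atp5c1 measured -2.44 in replicate 1 and -0.13 to 0.06 in the others, a mean of -0.41 ± 0.99 (SD, n = 6).

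The eye values of called members differed between dyes. Ndufa10 was 0.85 over the arrays with sighted RNA in Cy5 and -0.0041 over those with it in Cy3. In the same order Ndufaf5 was 0.88 and 0.49, Cox6a2 -0.40 and -1.05, and Cox8b -0.0025 and -1.02. Ndufa7 was 0.61 and 0.092, Ndufa1 0.45 and 0.011, and Cox6a1 0.57 and 0.0032. Uqcrh was 0.42 and 0.015, Ndufaf7 0.42 and -0.039, Cox5a -0.25 and -1.18, and Cox7a1 -0.26 and -1.13. Only Ndufaf5 and Cox6a2 kept their eye calls under all 17 alternatives, which include each dye orientation alone. The median of all genes on single eye arrays lay between 0.10 and 0.49 in the first orientation and between -0.53 and 0.06 in the second.

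The counts of the other mitochondrial lists in the eye stand beside 15.9% of all genes called higher and 11% called lower. Among regulators of mitochondrial biogenesis, 9 of 16 rose and 1 fell, with Polg2, a subunit of the mitochondrial DNA polymerase, up by 1.86 ± 0.26 and the coactivator Ppargc1b up by 0.60 ± 0.13 (SD, n = 6). Of 11 genes of coenzyme Q synthesis and electron entry, 5 fell and none rose, among them Coq10b (-0.69 ± 0.20) and Gpd2 (-0.57 ± 0.17; SD, n = 6). Mitochondrial ribosomal genes rose in 10 and fell in 2 of 59, import and transport genes in 4 and 2 of 21, citrate cycle enzymes in 1 and 1 of 14, and cytosolic ribosomal genes in 1 and 12 of 57.

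In the brain no member was called in either direction (0% of 16112 genes were called higher and 0.00621% lower, the latter being 1 gene), and none had an unadjusted p under 0.05, where 4.08% of all genes did. The members' median was -0.01 against -0.0035 for all genes, and 29 of 70 lay above 0, where 48.4% of all genes did. The means ran from -0.16 for Cox6b2 to 0.13 for Ndufaf5, and the smallest p was that of Uqcrc1, with a mean of -0.11 ± 0.12 (SD, n = 6; limma adjusted p = 0.959). The median over complexes I to V lay between -0.06 (complex II) and -0.0020 (complex IV). Cox6a2 had a mean of 0.05 (95% interval -0.11 to 0.21) and Cox7a1 one of -0.0020 (-0.21 to 0.21), while Cox8b, Ndufab1 and Ndufaf3 were measured in too few brain replicates to be tested. The rod genes (0 of 7 called) and skeletal muscle genes (0 of 11 called) did not pass the test in brain either.

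The difference between organs was tested for 69 members in 1 model of all genes, with a weight for each organ's spread, lowest for heart. Heart and brain values share control animals. The model took all replicates as independent, although the labels do not say which replicates of different organs share a sighted animal. Between heart and eye, 3 members differed, where 6.33% of 12492 genes did. Cox6a2 was 0.23 in heart and -0.72 in eye, a difference of 0.96 ± 0.21 (SE; limma adjusted p = 0.0116, and 0.00669 with a separate spread per organ). Ndufaf5 was -0.23 and 0.69, a difference of -0.92 ± 0.19 (SE; limma adjusted p = 0.00612, and 0.0129). Uqcrc2 was 0.48 and -0.10, a difference of 0.58 ± 0.13 (SE; limma adjusted p = 0.015), a call lost with a separate spread (0.0529).

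All 3 calls were lost without heart replicate 1, and Cox6a2 and Uqcrc2 also without heart replicate 2. Cox7a1 differed by 0.96 ± 0.35 (SE) and was not called (limma adjusted p = 0.115), but was with a separate spread (0.0342). Its heart mean of 0.33 averages 2 probes. The probe measured in all 4 heart replicates gave 0.19, and the other, measured in 1, gave 1.37. Cox8b was not tested, for lack of brain values. The heart value exceeded the eye value in 60 of 69 members, where it did in 44.5% of all genes, with a median difference of 0.24 against -0.05.

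Between heart and brain no member differed at an adjusted p under 0.05 in limma (0% of all genes did), and 15 of 69 members did at an unadjusted p under 0.05, where 9.13% of all genes did. The heart value was higher in 66 of 69 members, where it was in 49.4% of all genes, and the median difference was 0.27 against -0.0041. Uqcrc2 had the smallest p there, a difference of 0.53 ± 0.13 (SE; limma adjusted p = 0.35).

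Between eye and brain 8 members differed, where 20.3% of all genes did. Cox6a2 was lower in the eye contrast by 0.78 ± 0.11 (SE; limma adjusted p = 4.55e-05) and Cox7a1 by 0.63 ± 0.18 (SE; limma adjusted p = 0.0169). Ndufaf5 was higher by 0.56 ± 0.09, Ndufa10 by 0.45 ± 0.07 and Ndufa7 by 0.41 ± 0.10 (SE; limma adjusted p = 0.000277, 0.000149 and 0.00748). The other 3 were Ndufb11 (0.30), Ndufaf7 (0.25) and Atp5b (0.22). These 3 calls were the least stable of the 8. Of 21 alternatives, Atp5b lost its call in 13, among them a separate spread per organ (limma adjusted p = 0.0599), with adjusted p up to 0.12. Ndufb11 lost its call in 7 (limma adjusted p up to 0.0847), among them without eye replicate 1, 3 or 6 or brain replicate 2 or 3. Ndufaf7 also lost its call in 7 (limma adjusted p up to 0.104), among them without eye replicate 3, 5 or 6 or brain replicate 3 or 6.

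Where a gene had several probes, these did not always give the same sign in heart. The probes of Ndufs7 gave -0.31 and 0.32, the 4 of Cox4i1 -0.17 to 0.44 and the 3 of Atp5a1 -0.24 to 0.36 (heart means over replicates). All tested probes had one sign in 11 of 17 such genes in heart, 13 of 18 in eye and 10 of 18 in brain. The 2 probes of Cox6a1 agreed in the eye (0.26 and 0.32), as did those of Ndufa1 (0.21 and 0.26).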

How the data were processed

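Per the labels' protocols, total RNA of single organs was reverse transcribed, labelled with Cy3 or Cy5 and hybridised with a pool of control RNA. The values are the authors' deposited log2 ratios, read here as Cy5 over Cy3, a likely direction that rests on the rod genes in the eye; their background correction and normalization: not given in the sources used here. The sign was turned on arrays with sighted RNA in Cy3 (on 1 brain array the labels give Cy5 for both channels, and that of the sighted channel was used), and 4170 values at a ceiling (a log2 ratio above 15) were set missing. Probe names came from the platform table (12771 probes with 1 symbol, 8023 with none). A probe with no symbol was kept as a gene of its own in all tests. Arrays with consecutive numbers and exchanged dyes were averaged per probe as 1 replicate, and then over the probes of a gene. Deviations of the arrays of 1 pair correlated by -0.01 (heart), 0.07 (eye) and 0.0053 (brain) on average, so the data do not show which arrays share an animal. Nor do they show whether same-numbered pairs of different organs share an animal (mean correlations -0.02 for heart and eye, 0.0068 for heart and brain, -0.0053 for eye and brain). Correlations this low were also found within a pair, so they cannot exclude it.

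Genes measured in all replicates, or in all but 1, were tested against 0 with limma 3.58.1 in R 4.3.3, with Benjamini-Hochberg adjustment over all genes of the organ and a threshold of 0.05. Organs were compared in 1 limma fit with weights per organ. The scripts were tested on simulated data. Genes were named by rule: called members, the 2 smallest p-values per complex and organ, the highest and lowest heart means, the 3 isoform pairs, the 5 smallest p-values per organ contrast, members whose probes differed most, and the 2 smallest p-values per other list; Ndufa5 and Cox5a in heart, Cox6b2 in brain, Atp5c1 and Pvalb in eye, and Ndufb11, Ndufaf7 and Atp5b between eye and brain fall outside it and were chosen after their values were seen. The members and lists were chosen with earlier results of these data known. Promoter letters are RefSeq's (61 of 73 members matched). Figures were drawn with matplotlib 3.10.9 from Python 3.11.15.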

Additional observations from a re-analysis of the deposited data

Results flagged for a closer look

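Of 81 groups of replicates of named members, 3 had a replicate far from the others, where chance flags about 1 in 20. Cox8a in heart measured 3.54 in 1 replicate, with the next at 0.69. Cox5a in eye measured -1.69 in 1 replicate, with the next at -0.70. Ndufa7 in brain measured 0.089 in 1 replicate, with the next at -0.054.

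Differences between organs were tested in the fit of all genes. Heart minus eye was 0.96 for Cox6a2, -0.92 for Ndufaf5 and 0.58 for Uqcrc2. Eye minus brain was -0.78 for Cox6a2, -0.63 for Cox7a1, 0.56 for Ndufaf5, 0.45 for Ndufa10, 0.41 for Ndufa7, 0.30 for Ndufb11, 0.25 for Ndufaf7 and 0.22 for Atp5b.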

How the results depend on the processing

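The heart count of called members was 0 under all 17 alternatives tried, and the heart member median stayed between 0.19 and 0.29; the alternative without both arrays of replicate 4, chosen after seeing the data, gave 0.24. The eye count of 11 became 17 with arrays centred and 18 with arrays centred and scaled. All genes called in the eye went from 2520 higher and 1739 lower to 2537 and 2410, and to 2590 and 2471. The eye count was 34 with sighted RNA in Cy5 only and 21 with it in Cy3 only. With 1 replicate left out it lay between 5 and 14 (6 without replicate 1, 7 without 3, 4 or 5, and 5 without 6). For these fits and the brain counts below, the share of all genes called is not given here. Such counts are therefore no result about the members in particular. The eye median was 0.27 (Cy5 only) and -0.28 (Cy3 only). The brain count was 1 (Cy5 only) and 5 (Cy3 only), and the brain median was 0.089 (Cy5 only). With 1 shared spread, 20 members differed between heart and eye, 5 between heart and brain and 4 between eye and brain. With the replicate block, 4 differed between eye and brain. For these fits, and for those without 1 replicate, the share of all genes called is not given here. The counts are therefore no result about the members in particular. Leaving out 1 replicate gave 0 to 5 members for heart against eye (0 without heart replicate 1, 1 without heart replicate 2, 5 without eye replicate 4) and 5 to 8 for eye against brain (5 without eye replicate 3 or brain replicate 3). The replicate block treats same-numbered pairs of different organs as matched, and it changed no other count of calls between organs. Whether such pairs share an animal is not known. Of 1445 values of single genes under an alternative, 50 had the other sign, 34 of them with 1 dye orientation only (6 in heart, 11 in eye, 17 in brain). In 3 of the 50, all in the eye, the gene was called as reported or under the alternative: Cox7a2 (0.32, Cy5 only), Ndufa10 (-0.0041, Cy3 only) and Ndufaf7 (-0.039, Cy3 only). The other 47 were called in neither, among them Atp5b (-0.10, Cy5 only) and Ndufv1 (-0.20, Cy5 only) in heart and Atp5b (-0.17, Cy3 only) in eye. The cause of these changes was not tested. With the sign kept, 69 of the 1445 lost a call and 36 gained one. Of the values called in neither, 61 moved by more than the replicate SD or, for an organ difference, its SE. The 4 heart replicates and the single control pool per organ limit the precision, and no spot intensities were used here, so the signal behind a ratio is unknown.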
